A study of Gallus gallus with 16 samples.

Results

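In the pituitary gland of the chicken embryo, 104 spots of a cDNA microarray gave signals that rose between embryonic days 10 and 17 (E10 and E17) and rose most between E10 and E12. They were chosen by their own values: of 7200 spots, 7103 held at least 3 values at every age, and a spot was taken when its mean at E17 exceeded its mean at E10 by 0.6 or more and the step from E10 to E12 was the largest of the 3 steps between consecutive ages. Of all rising spots, another 109 rose most between E12 and E14 and 73 between E14 and E17. All 16 arrays entered the choice, so the rise of these probes and its timing are given as a description. Of the 104 probes, 102 had a value on every array and 2 lacked 1 value each.

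The study followed Gallus gallus pituitary glands at E10, E12, E14 and E17, and its title names the differentiation of thyrotrophs, somatotrophs and lactotrophs. Each age had 4 arrays, 1 for each replicate pool of glands, and the embryos per pool numbered 16 in the youngest group, 8 at E12, 4 at E14 and 2 in the oldest. All eggs were incubated alike, with neither treatment nor genotype named in the labels, so age and the size of the pool changed together. Each array set amplified, Cy3-labelled RNA of 1 pool against a common reference in Cy5, which combined all 16 samples.

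The anterior pituitary is built of hormone-producing cell types that arise from a common epithelium at different times. Thyrotrophs make thyrotropin, somatotrophs make growth hormone and lactotrophs make prolactin, and in birds the lactotrophs are the last of these to appear in number. A whole gland is a mixture of such cells with vessels, connective tissue and precursor cells, and a transcript can rise because more cells make it or because each cell holds more of it. These 2 cases cannot be told apart in RNA of whole glands.

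The annotation used here pairs 54 of the 7200 rows with a gene, all with STUB1 and all with the same accession, and it leaves 7146 rows unnamed. One of the 104 probes, row 2767, is among the 54. It rose by 1.13 from E10 to E17, while the other 53 rows differed by -0.70 to 0.40 with a median of -0.01. Rows given to 1 accession thus did not move together, and row 2767 is not named by a gene here. The remaining 103 probes have no gene name in the table used, so all probes are given by row number. Hormones, receptors and transcription factors of the pituitary, and markers of other tissues, could not be looked up among them.

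Values are the authors' deposited log ratios, taken here to be log2 of the sample over the common reference. Each array had been centred and scaled to nearly the same spread, so differences are given on this scale and not as fold changes. The sign was taken from the design. A pool of all samples should give a mean linear ratio over ages that is alike from probe to probe, and among 56 probes that varied most between ages its SD was 0.102 on the log2 scale as deposited and 0.33 with the sign turned. The direction is therefore likely, though not stated with the values. The lowest correlation between 2 arrays over the tested probes was -0.369, between E10 replicate 3 and E17 replicate 2.

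At E10 these transcripts stood below the pool without exception. All 416 values of the 104 probes on the 4 E10 arrays were below 0, and the age means ran from -1.53 to -0.30 with a median of -0.72. At E12, 81 of 416 values were above 0, and the age means ran from -0.56 to 0.32 with a median of -0.22. At E14, 254 of 414 values lay above 0, with a median age mean of 0.10. By E17 this held for 379 of 416 values, 76 probes were above 0 on every array and the median age mean was 0.27. The sequence was one of depletion relative to the pool at the youngest age, a level just under it at E12 and a moderate excess in the oldest glands. The rule asked for a rise from E10 to E17 and the pool combined all ages, so the low start and high end largely follow from the choice. The 109 and the 73 other rising probes also had low E10 means, at -0.76 and -0.56.

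**Figure D1:**
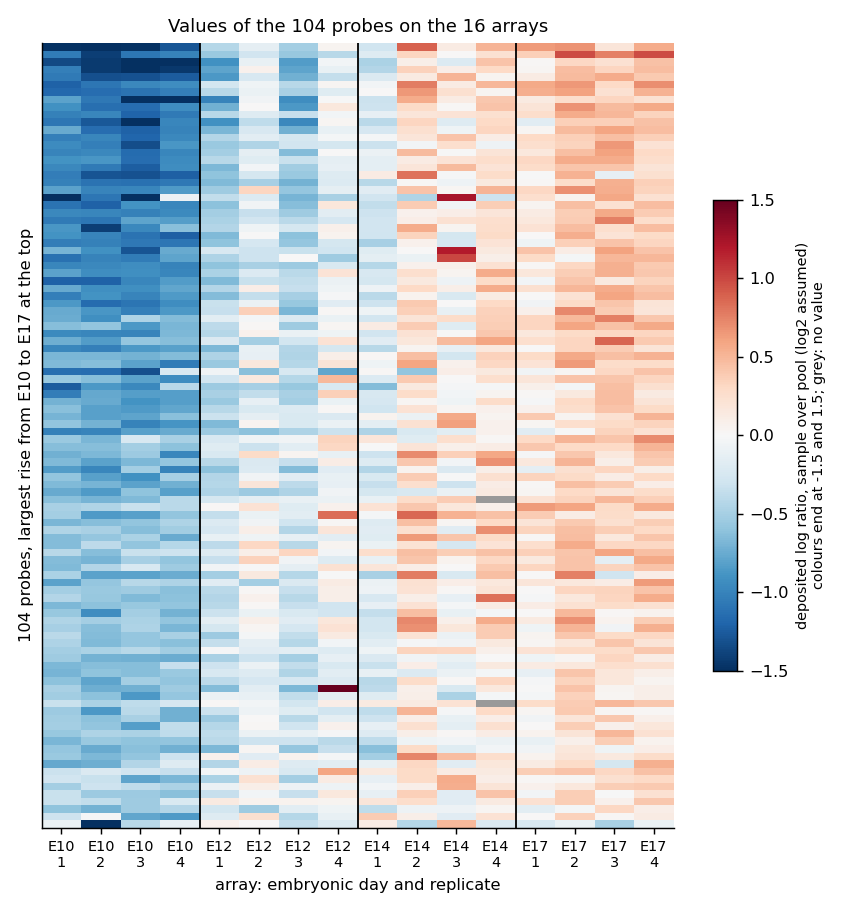
Deposited log ratios (colour, log2 assumed) of the 104 probes (rows, ordered by the difference between E17 and E10) on the 16 arrays (columns, by embryonic day and replicate). All E10 values are below 0, and most values at E17 are above it.

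Averaged over the 104 probes, the 4 E10 arrays stood at -0.75, -0.84, -0.82 and -0.73 (replicates 1 to 4). The E12 arrays stood at -0.41, -0.11, -0.38 and -0.03, all above the E10 arrays. Means at E14 were -0.19, 0.24, 0.08 and 0.23, and replicate 1 there overlapped the E12 arrays. The E17 arrays, at 0.13, 0.36, 0.31 and 0.33, overlapped those of E14 through replicate 1. In order of age, the list means were thus -0.78 ± 0.05, -0.23 ± 0.19, 0.09 ± 0.20 and 0.28 ± 0.10 (SD over arrays, n = 4). Over all 7103 tested probes the same means were 0.00 at every age, since arrays were centred.

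**Figure D2:**
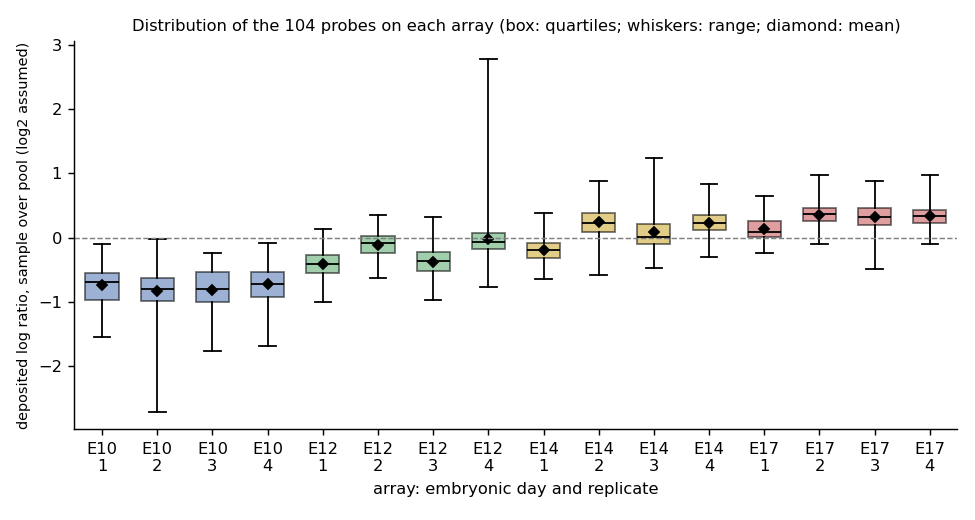
Distribution of the deposited log ratios (log2 assumed) of the 104 probes on each array, by embryonic day and replicate; boxes show quartiles, whiskers the range and diamonds the mean. The E10 arrays lie lowest, E12 replicates 1 and 3 lie below replicates 2 and 4, and E14 replicate 1 lies among the E12 arrays.

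The mean difference per day was 0.276 between E10 and E12, 0.16 between E12 and E14 and 0.0645 between E14 and E17. That the first of these was the highest was fixed by the rule. Of the summed difference between E10 and E17, 51.9% had been reached by E12 and 81.8% by E14. A single probe had reached a median of 50.5% of its rise by E12 (quartiles 44.6 and 57.0%), and for 51 of the 104 the share was under 50%. The first step was thus the largest for every probe by choice, and in about as many cases as not it was the smaller part of the whole rise. The difference between E17 and E10 itself ran from 0.61 to 1.98 with a median of 0.98, and 51 of the 104 rose by at least 1, against 138 of all 7103 tested probes. The rule chose on this difference, so the excess over all tested probes was built in.

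After E12 most of these probes kept moving upward, which the rule in part required. Probes with a first step under 0.6 could enter only with a net rise between E12 and E17, and the median first step was 0.51. The later counts and medians are therefore given as a description. The means of 94 probes increased at each of the 3 steps, and 9 were highest at E14 and slightly lower at E17. Only probe 2361 was highest at E12, and this rested on 1 array, E12 replicate 4, at 2.78. Median differences were 0.51 for E12 against E10, 0.32 for E14 against E12 and 0.21 for E17 against E14, where all tested probes had medians of -0.01, -0.02 and -0.00. The step from E12 to E14 was the next largest for 78 probes and that from E14 to E17 for 26.

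Counts of calls come from limma, a linear model fitted to all 7103 probes on the 16 arrays, with p values adjusted by the Benjamini-Hochberg method over all of them and a threshold of 0.05. Because the rule used the same values, the counts are given beside the share of all tested probes and no more is read from them. For E17 against E10, 102 of the 104 were called higher (6.65% of all tested probes were). For E12 against E10, 19 were called higher (0.296% of all), and these were 19 of the 21 probes called higher in the whole table. Their differences ran from 0.56 to 1.21 (SE 0.11 to 0.21). The count rested on single arrays: it was 2 without E12 replicates 2 or 4, 3 without E10 replicates 1 or 2, and 5 and 7 without E10 replicates 3 and 4. It was 9 without E14 replicate 4, 10, 8 and 7 without E17 replicates 1, 2 and 4, and 34 without E14 replicate 1. Without E12 replicates 1 or 3, E14 replicates 2 or 3 or E17 replicate 3 it stayed at 17 to 24. Calls in the whole table, 28 in both directions together, moved with it, from 2 without E12 replicate 2 to 48 without E14 replicate 1. Arrays of E14 and E17 did not enter the difference between E12 and E10, only the variance taken over all ages. A fit of E10 and E12 alone called 17 of the list, 12 of them among the 19, with 24 in the whole table. For E17 against E12, 59 were called higher (4.08% of all), including 18 of those 19. It was 38 without E12 replicate 3 or E17 replicate 4, with 415 and 396 in the whole table, both directions, in place of 557. None was called for E14 against E12 by limma (0.69% of all were called higher), although 53 had an unadjusted p under 0.05 (10.1% of all), and 1 was called for E17 against E14 (0.859%). Same-numbered arrays of E12 and E14 deviated together, and a fit with a replicate block called 3 of the list for E14 against E12, with 70 in the whole table in place of 56. The fit without a block that left out E14 replicate 1 called 19 of the list, with 138 in the whole table. In the F test over any age, 100 were called (12.7%). No probe of the list was called lower for E12 against E10 or E14 against E12 (0.0985% of all in each), E17 against E14 (0.718%), E17 against E12 (3.76%) or E17 against E10 (10.2%). For E12 against E10 and E17 against E10 the rule allowed no lower call, since both differences had to be positive. At an unadjusted p under 0.05, 96 passed for E12 against E10 (9.55% of all) and 27 for E17 against E14 (11.5%).

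The step from E10 to E12 led the next largest step by 0.01 to 0.71, with a median of 0.15 and quartiles of 0.09 and 0.26, while the median standard error of the difference between the first and the second step was 0.25. In limma, a difference between the first and the second step was called for 0 of the 104 probes (0% of all tested probes). At an unadjusted p under 0.05, 4 passed (5.03% of all). With such standard errors, the lack of calls does not show that the steps were equal. Against the third step, 0 of the 104 were called (0.563% of all) and 24 had an unadjusted p under 0.05 (7.67%). For 11 probes the lead was under 0.05. The lead is a quantity that the rule itself chose on.

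Separation of single arrays followed the same order. The probes were chosen by the means of these arrays, so shares above those of all tested probes were largely built in. The counts are a description. For 79 of the 104 probes every E12 value was above every E10 value (3.52% of all tested probes), and for 102 every E17 value was above every E10 value (10.7%). Every E17 value was above every E12 value for 63 (5.63%). Between neighbouring later ages it held for fewer of the list. Every E14 value was above every E12 value for 7 of the 104 (2.51% of all tested probes). Every E17 value was above every E14 value for 7 of the 104 (2.67% of all).

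Probe 5598 had the largest first step and the largest rise in all. Its 4 values were -1.48, -1.63, -1.49 and -1.29 at E10 and -0.43, -0.14, -0.51 and 0.04 at E12. They were -0.30, 0.88, 0.13 and 0.51 at E14 and 0.63, 0.68, 0.18 and 0.56 at E17. The E10 values lay far below all others, the E12 and E14 arrays overlapped, and the E14 arrays spread most widely. Its step from E10 to E12 was 1.21 (SE 0.19, limma adjusted p = 0.00913), or 61.0% of its rise of 1.98. The step kept its size when any 1 array of E10 or E12 was left out (1.11 to 1.29). The call was lost in 8 of 26 alternatives. Without E10 replicates 1 or 2 or E12 replicates 2 or 4 the limma adjusted p was 0.0534 to 0.0606, and it was 0.0827 after quantile normalization, 0.0712 without moderation, 0.0674 with the arrays that lacked the first rows as a term and 0.18 without those arrays.

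Probe 5011 followed with a first step of 1.05 (SE 0.20, limma adjusted p = 0.0422). It was the lowest of the 104 at E10, at -1.36, -1.43, -1.65 and -1.69. At E12 its replicates 1 and 3 stood at -0.91 and -0.84, and replicates 2 and 4 at -0.11 and -0.04, so that the arrays of 1 age lay in 2 separate pairs. Means of -0.04 ± 0.39 at E14 and 0.25 ± 0.18 at E17 followed (SD, n = 4). The call was lost in 13 of 26 alternatives. These were each E10 array left out, E12 replicates 2 or 4 or E17 replicates 2 or 4 left out (limma adjusted p from 0.0559 to 0.183), quantile normalization (0.11), no moderation (0.109), the arrays that lacked the first rows as a term (0.169) or left out (0.175), and a fit of E10 and E12 alone (0.0506).

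Probe 2139 rose by similar amounts at each step. In order of age its means were -1.14 ± 0.19, -0.46 ± 0.13, 0.09 ± 0.23 and 0.76 ± 0.29 (SD, n = 4), and the E17 mean was the highest of the 104. The steps were 0.68, 0.55 and 0.67, so the first led by only 0.01 and made up 35.8% of the rise, the smallest share in the list. It was the 1 probe called for E17 against E14 (SE 0.14, limma adjusted p = 0.0213), a call that was lost in 10 of 26 alternatives. Probe 1349, with a share of 35.9%, had steps of 0.26, 0.21 and 0.24. Its means went from -0.61 ± 0.05 through -0.36 ± 0.05 and -0.14 ± 0.16 to 0.10 ± 0.20. The E14 mean was lowered by replicate 1, at -0.379, where the other arrays of that age lay between -0.09 and -0.04. The near equality of its steps and its place in the list thus depended on that array. Probe 3240 came after 2139 in the difference between E17 and E12, at 0.94 (SE 0.15, limma adjusted p = 0.000555), and its means were -1.24 ± 0.12 at E10 and -0.55 ± 0.29 at E12.

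The 9 probes that were highest at E14 fell little afterwards, by 0.00 to 0.22, and limma called none of these decreases. Probe 4137 showed the largest rise among them. Its 4 values at E10 were -1.04, -1.29, -1.31 and -1.22, and those at E12 were -0.61, -0.26, -0.56 and -0.20. At E14 they were 0.12, 0.81, -0.01 and 0.27, and at E17 they were -0.00, 0.53, -0.12 and 0.23. The later ages overlapped almost wholly, while E10 and E12 were apart. Probe 1535 reached 0.00 ± 0.22 at E12, 74.7% of its rise, and stood at 0.34 ± 0.45 at E14 and 0.24 ± 0.21 at E17, after -0.73 ± 0.18 at E10.

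**Figure D3:**
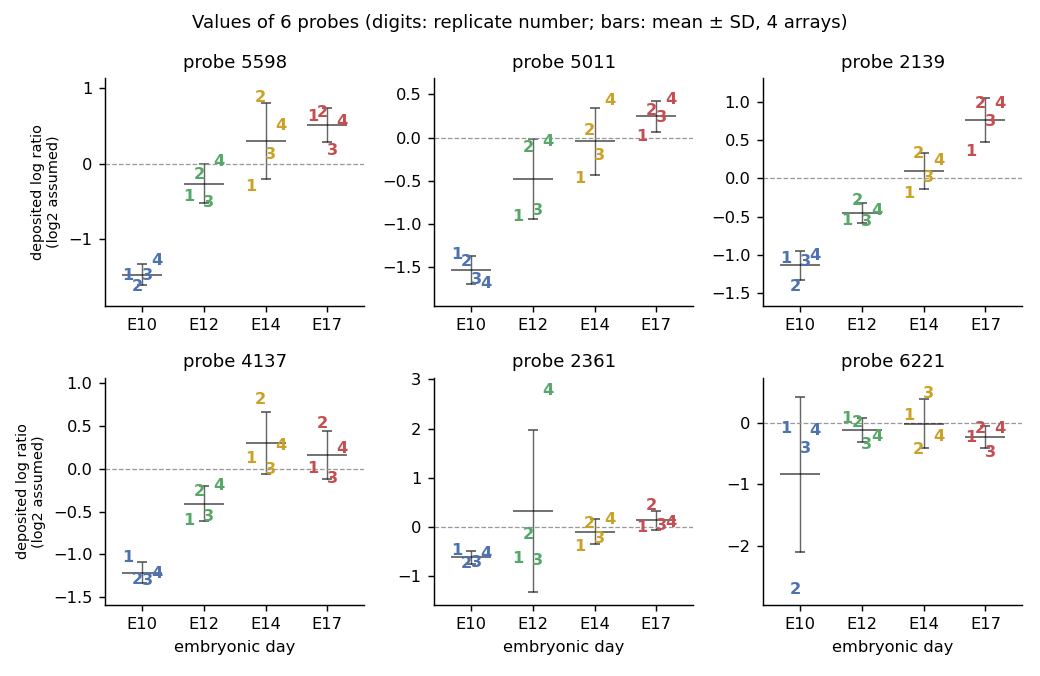
Deposited log ratios (log2 assumed) of 6 of the 104 probes by embryonic day; digits mark the replicate and bars show mean ± SD over 4 arrays, with a separate vertical scale for each probe. Probes 2361 and 6221 each hold 1 array far from the other 3, at 2.78 and -2.72.

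For 2 probes, 1 array stood far from the other 3 of its age. Probe 2361 stood at -0.65, -0.16 and -0.68 on E12 replicates 1 to 3 and at 2.78 on replicate 4, which put its E12 mean at 0.32 ± 1.66 (SD, n = 4), above its E17 mean of 0.14 ± 0.20. Probe 6221 stood at -2.72 on E10 replicate 2 and at -0.09, -0.41 and -0.12 on the others, and without that array its difference between E17 and E10 was -0.022. They were the 2 probes not called for E17 against E10 (limma adjusted p = 0.356 for both) and the only ones whose share reached at E12 was over 100%. Unlike 6221, probe 2361 had every E17 value (-0.005 to 0.43) above every E10 value (-0.73 to -0.49). Its rise was 0.75 with an SE of 0.50, from a variance taken over all ages, and it was called in 3 of 26 alternatives. Without these 2 probes the list means were -0.78, -0.24, 0.09 and 0.29 at the 4 ages, within 0.01 of those with them.

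**Figure D4:**
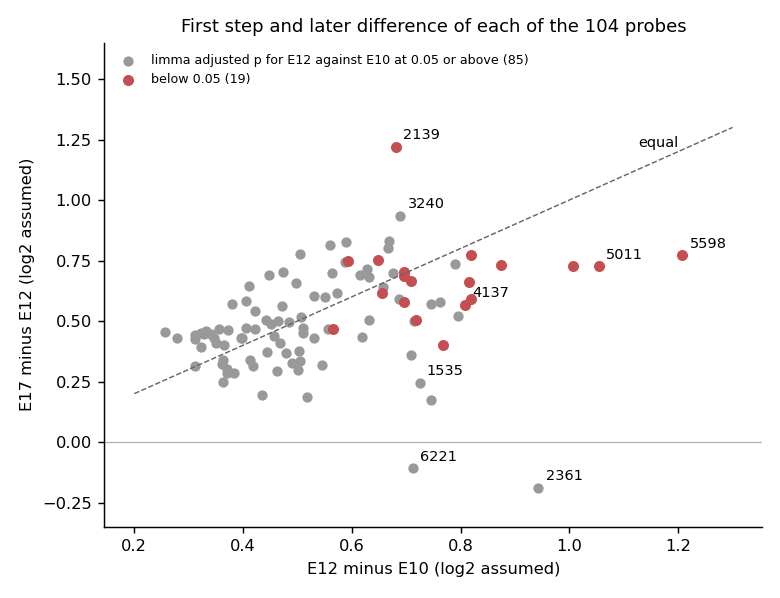
Difference between E12 and E10 (horizontal) against the difference between E17 and E12 (vertical) for each of the 104 probes, both in deposited log ratios (log2 assumed); red points are the 19 called by limma for E12 against E10, and the dashed line marks equal differences. Probes 2361 and 6221 lie below 0 on the vertical axis.

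At the edge of the rule, the members with the smallest rise were probes 6221 and 4090, at 0.605 and 0.613. Probe 4090 stood at -0.31, -0.02, -0.78 and -0.86 at E10 and at 0.00, 0.35, 0.02 and 0.13 at E17. The probes just outside were 4099, at 0.597, and 2928, at 0.593. Probe 2928 had a first step of 0.55, a second of 0.44 and then fell by 0.40, from 0.67 ± 0.23 at E14 to 0.27 ± 0.38 at E17 (SD, n = 4). A further 14 of the 182 other rising probes missed the list because their first step was short of the largest by under 0.05.

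The list depended on single arrays at E12 and E14. With each array left out in turn, 75 to 118 probes met the rule, and 49 of the 104 met it in all 16 runs. Without E12 replicate 4 the list had 75 probes, 71 of them among the 104, and without E12 replicate 2 it had 86, with 81 in common. Without E14 replicate 1, 85 probes met the rule and 83 were shared. Leaving out E12 replicates 1 or 3 instead gave 116 and 118 probes, each with 101 in common.

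Within an age, the same arrays were low or high for many of the probes. The rule took age means built from these values, and membership turned on single arrays, so the choice may have set a part of these shares, and they are given as a description. At E12, replicate 1 was the lowest of the 4 arrays for 52 of the 104 probes (50% against 28.2% of all tested probes) and replicate 3 for 39 (37.5% against 23.6%). Replicate 4 was the highest for 60 (57.7% against 24.3%) and replicate 2 for 34 (32.7% against 24.0%). At E14, replicate 1 was the lowest for 83 (79.8% against 26.8%), and at E17 replicate 1 was the lowest for 76 (73.1% against 20.7%). No E10 array was the lowest or the highest for more than 35. The median correlation of deviations between 2 probes of the list was 0.456 over 16 arrays, with 87.6% of 5356 pairs above 0, and the median over all pairs of tested probes was -0.00126. These correlations share the arrays and their scaling, and are given as a description.

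In the 109 probes that rose most between E12 and E14 the median correlation of deviations was 0.341, in the 73 that rose most between E14 and E17 it was 0.0474, and between the 104 and the 109 it was 0.328. The low mean of E14 replicate 1 was present in both of the earlier lists, at -0.28 from its age mean in the 104 and -0.40 in the 109, and was -0.04 in the 73. At E12 the array deviations of the 104 were -0.18, 0.12, -0.15 and 0.20, and those of the 109 were -0.02, 0.03, -0.09 and 0.07. The difference between the lists was not tested. Spread within an age was larger in the 104 than over all tested probes, with median SDs of 0.123, 0.229, 0.267 and 0.187 against 0.113, 0.165, 0.186 and 0.136 in order of age. This was not particular to the 104. The median SDs were 0.129, 0.180, 0.291 and 0.139 in the 109 and 0.111, 0.191, 0.197 and 0.203 in the 73. Only the 73 at E10 were not above all tested probes.

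**Figure D5:**
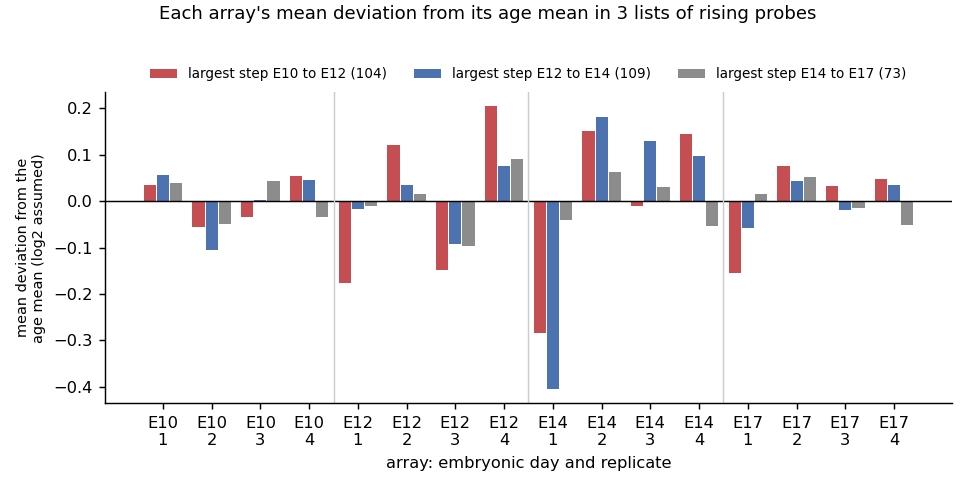
Mean deviation of each array from its age mean (log2 assumed) over the 104 probes with the largest step from E10 to E12, the 109 with the largest step from E12 to E14 and the 73 with the largest step from E14 to E17. At E12 the 104 probes lie at -0.18 and -0.15 on replicates 1 and 3 and at 0.12 and 0.20 on replicates 2 and 4.

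Replicates 3 and 4 of both E12 and E14 lacked values in 39 to 45 of the 45 rows that open the table, where the other 12 arrays lacked 0 or 1. The probes were chosen with all of these arrays, so the differences on either side are a description. The E12 arrays with the blank rows exceeded E10 by 0.58 and the others by 0.52, with all 104 probes higher in each, where 46.3 and 49.3% of all tested probes were. E14 exceeded E12 by 0.36 among the arrays with blank rows and by 0.28 among the others. The last step was 0.13 from the E14 arrays with blank rows and 0.26 from the others. Without these 4 arrays, limma called 0 probes for E12 against E10 in the whole table, and with them as a term in the fit it called 5, of which 3 were in the list.

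Some members were nearly alike on all arrays. Probes 1562 and 3180, which lie 1618 rows apart in the table, correlated at 0.997 over the 16 arrays and differed by at most 0.181 on any of them. Means of probe 1562, in order of age, were -0.98 ± 0.02, -0.38 ± 0.17, 0.01 ± 0.22 and 0.36 ± 0.19 (SD, n = 4), and those of 3180 were -1.08 ± 0.05, -0.52 ± 0.23, -0.08 ± 0.24 and 0.30 ± 0.21. Probes 1508 and 2349, 841 rows apart, correlated at 0.996 and differed by at most 0.123. Probe 1508 stood at -0.96 ± 0.12, -0.27 ± 0.13, 0.11 ± 0.18 and 0.42 ± 0.16, and 2349 at -1.06 ± 0.09, -0.25 ± 0.17, 0.13 ± 0.17 and 0.41 ± 0.13. Of 5356 pairs, 43 correlated above 0.98, and the median was 0.87; all pairs share the arrays and the rise by which they were chosen. Whether such pairs are spots of 1 gene was not tested, since no gene is given for them.

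The probes were not spread evenly through the table. With the table cut into 5 blocks of 1440 rows, they made up 2.15, 2.43, 1.25, 0.625 and 0.905% of the tested rows from the first block to the last. The probes that rose most between E12 and E14 had a like distribution, with 2.52 and 2.71% in the first 2 blocks and 0.625 and 0.626% in the last 2. No probe of the 104 lay in the 743 rows between rows 3240 and 3984. What the order of rows stands for is not given in the sources used here, and the distribution was not tested.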

How the data were processed

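The series holds 16 two-colour cDNA arrays, 4 for each of E10, E12, E14 and E17, grouped by the sample descriptions. The deposited table gives 1 log2 ratio per row and array. The base is an assumption. Dyes come from the labels' protocols. How images were read, background removed, ratios normalized or spots filtered is not given in the sources used here. Columns as deposited had means near 0 and SDs of 0.261. The labels call the replicates biological replicates and describe pools of glands. Each pool had 1 array, so p-values measure the spread between arrays within an age, taken over all ages together. Differences between pools and noise of the amplification and the array cannot be told apart in it.

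Rows with at least 3 values at every age (7103 of 7200) were fitted with limma 3.58.1 in R 4.3.3 (lmFit, contrasts and eBayes, 1 mean per age, all 16 arrays, 1 variance per probe), with Benjamini-Hochberg adjustment over all 7103 and a threshold of 0.05. Precision is limited by the number of arrays. Between 2 ages, the standard error of a difference had a median of 0.146 in the 104 probes and 0.12 over all. The fit was tested on simulated data. Alternatives were other normalizations, array weights, no moderation, other filters, the replicate block, only the ages compared, other forms of the rule and each array left out. The 4 arrays with blank first rows were also given a term or left out, and no label names them as a batch. The main fit did not pair arrays by replicate number, although the deviations of all 4 same-numbered arrays of E12 and E14 correlated above 0.1 (0.148 to 0.437). The replicate block, a term for the replicate number over all ages, was an alternative only. Missing values were skipped, and none were imputed.

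The members, the lists and the tests were chosen with earlier results of these data known. Probes were named by a fixed rule: the 2 largest called differences in each contrast, the 2 largest rises in each class by the direction of the later steps, the 2 nearest the rule's least rise on either side, the 2 most alike pairs, and the 2 highest and 2 lowest shares reached at E12. Gene lists for pituitary hormones, factors, receptors and other tissues could not be used because the annotation names 1 gene.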

Additional observations from a re-analysis of the deposited data

Results flagged for a closer look

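For the 14 named probes and the list mean, 60 groups of 4 arrays were examined for a value far from the other 3, and 4 were found. Chance gives such a value in about 1 in 20 groups, but probes 2361 and 6221 were named for the share of the rise reached at E12, which these single values had raised, so that figure does not apply to the 4. Probe 2361 stood at 2.784 on E12 replicate 4, with the others between -0.68 and -0.16. Probe 6221 stood at -2.716 on E10 replicate 2, with the others between -0.41 and -0.09. On E14 replicate 1, probe 1349 had -0.379, below the -0.09 to -0.04 of the other arrays. The same array gave -0.128 for probe 2349, which lay between 0.19 and 0.24 on the rest.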

How the results depend on the processing

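All alternatives were planned, with earlier results of these data known. The number of probes meeting the rule was 104, and 70 to 128 under other thresholds, normalizations and filters; quantile normalization gave the lowest, with 68 in common, and leaving out 1 array gave 75 to 118. Of members called for E12 against E10 (19), quantile normalization left 2 and no moderation 3. The term for the arrays with blank rows left 3 and the fit without those arrays 0. Array weights gave 43 and the replicate block 45. Over all tested probes, both directions, these settings called 4, 7, 5, 0, 64 and 64, against 28. Leaving out 1 array gave 2 (without E12 replicates 2 or 4) to 34 (without E14 replicate 1). A fit of E10 and E12 alone gave 17 (24 in the whole table). The median difference over the 104 for this contrast was between 0.41 and 0.57 in all alternatives, and between -0.01 and 0.01 over all tested probes. The 104 were chosen by this step on the same arrays, so the range is a description. For E14 against E12 (0, with 56 in the whole table), quantile normalization and the replicate block gave 3 each (80 and 70 in the whole table). Leaving out 1 array gave 0 to 19, the highest without E14 replicate 1 (138 in the whole table). For E17 against E14 (1, with 112 in the whole table), array weights and no moderation gave 0 (106 and 104 in the whole table). The term for the arrays with blank rows, the fit without those arrays and a fit of only the compared ages also gave 0 (90, 80 and 42). With 1 array left out it was 0 or 1 (57 to 136 in the whole table). For the first against the third step (0, with 40 in the whole table), array weights gave 3 and the replicate block 1 (57 and 40 in the whole table). Leaving out 1 array gave 0 to 4, the highest without E14 replicate 1 (61 in the whole table). For the first against the second it was 0 throughout. Counts for E17 against E12 (59, with 557 in the whole table) ran from 40 without the arrays with blank rows (298) to 74 with the replicate block (677). With 1 array left out they ran from 38 to 67, the highest without E14 replicate 1 (622 in the whole table). They were 38 each without E12 replicate 3 (415) and E17 replicate 4 (396). Counts for E17 against E10 (102) and any age (100) ran from 100 to 103 and from 93 to 102. In the whole table they ran from 919 to 1887 and from 719 to 1071. The cause of these changes was not tested. Over 17 differences of named probes and 442 alternatives, 403 kept direction and call, 35 lost the call, 3 gained it and 1 reversed: probe 6221, E17 minus E10, at -0.022 without E10 replicate 2, in a range of -0.022 to 0.852 over the arrays left out. Replicate numbers were not treated as pairs in the main fit. Deviations of same-numbered arrays correlated at -0.0835 to 0.437, above 0.1 in 13 of 24 pairs. The best correlated array of another age had the same number in 28 of 48 cases, where unrelated numbers give 12. Depth cannot be given, and background levels were not analysed here.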
